A study of Mus musculus with 48 samples.

Results

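The mitochondrial ribosomal protein genes were described in Ba/F3, an established mouse haematopoietic cell line that depends on interleukin 3 (IL-3), across 8 genotypes of cytosolic ribosomal protein genes. Members were all genes whose symbol begins with Mrpl or Mrps followed by a number, leaving out symbols with a pseudogene suffix. This rule gave 78 of the 55487 genes in the table, and all 78 passed the filter on low counts at each level. By background knowledge, 51 encode proteins of the large mitoribosomal subunit and 26 proteins of the small subunit. The remaining one, Mrps36, is now assigned to the 2-oxoglutarate dehydrogenase complex. In the current naming of ribosomal proteins, 45 members correspond to a bacterial protein and 33 are specific to mitochondria, Mrps18a and Mrps18b among the latter.

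The mitochondrial ribosome translates the few messages that mitochondrial DNA encodes, which are membrane subunits of the oxidative phosphorylation complexes. Its ribosomal RNAs are transcribed inside the organelle, while every one of its proteins is encoded in the nucleus, made by cytosolic ribosomes and imported. The messages of the mitochondrial ribosomal proteins are therefore themselves substrates of the cytosolic ribosomes that were edited here.

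The edited genes encode cytosolic ribosomal proteins. Cells labelled WT were the reference group. Rpl5+/-, Rpl11+/-, Rpl22+/- and Rpl22-/- cells had loss of 1 or both copies of a large-subunit protein gene. Other cells had Rpl10 R98S on both copies. The remaining cells had Rps15 P131S or Rps15 H137Y, point mutations of a small-subunit protein that is mutated in chronic lymphocytic leukaemia. The labels give H137Y on both copies, and give P131S on both copies for the footprint libraries but with no second copy named for the RNA libraries. Each genotype was represented by 3 clones, each clone was 1 cell population with a number of its own, and how the clones were edited is not given in the sources used here. All cultures had 10% fetal calf serum and 1 ng/ml IL-3. Cycloheximide, which halts ribosomes on their mRNA, was added at 0.1 mg/ml for the last 1 min of culture. From 1 lysate per clone, one portion went to poly(A) RNA-seq and another to sequencing of ribosome footprints of 28 to 30 nt, which gave 48 libraries. Nothing in the labels ties clones of different genotypes to each other. The p-values set a change against the spread between clones within genotypes, pooled over all genotypes fitted.

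Total estimated counts ran from 13029073 to 38258559 in the RNA libraries and from 15598994 to 72044439 in the footprint libraries. RNA of the edited gene was lower in the deletion genotypes, as for Rpl5 (1534 to 1588 CPM in Rpl5+/- clones against 2283 to 2338 in WT clones). The point mutations cannot be checked from gene counts, but RNA of Rps15 itself differed between clones of each Rps15 genotype. It was 1433 to 1455 CPM in WT and 907, 1825 and 1935 CPM in P131S clones 24, 63 and 20. In H137Y clones 16, 6 and 2 it was 1829, 817 and 875 CPM. Rps15 footprints were 396 to 595 CPM in WT, 243, 425 and 693 CPM in P131S and 459, 262 and 258 CPM in H137Y. The part of these levels in the differences below was not tested. Footprints of Rpl22 in Rpl22-/- clones 649, 30 and 776 were 274, 1544 and 317 CPM. Clone 30 thus stood apart within its group and lay within the 1429 to 1596 CPM of the Rpl22+/- clones. Rpl22 RNA was 509, 727 and 662 CPM in these Rpl22-/- clones, 664 to 712 CPM in Rpl22+/- and 933 to 967 CPM in WT. Results for Rpl22-/- below include clone 30. Summed RNA of the 3 IL-3 receptor genes was 876 to 1039 CPM in WT clones, 2234 to 2844 CPM in P131S clones and 1421 to 2511 CPM in H137Y clones. The B lineage list of 7 genes summed to 6.22 to 10.2 CPM in WT clones, 3.81 to 5.07 CPM in P131S clones and 6.98 to 8.49 CPM in H137Y clones, and its markers Ebf1, Pax5 and Igll1 were at or near 0 although Ba/F3 is commonly described as a pro-B line. The erythroid genes summed to 15.4 to 41.5 CPM in WT, 9.74 to 26.7 CPM in P131S and 29.2 to 228 CPM in H137Y. The T lineage list stood at 12.9 CPM in P131S clone 20 and at or below 1.89 CPM in every other RNA library.

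A list of 9 myeloid and mast cell genes separated both Rps15 genotypes from the rest. It summed to 86.2 to 183 CPM in WT clones and to 50.3 to 473 CPM in the 15 clones of the large-subunit genotypes. It reached 1261, 2702 and 599 CPM in P131S clones 24, 63 and 20, and 775, 2587 and 501 CPM in H137Y clones 16, 6 and 2. S100a8 and S100a9, granulocyte alarmin genes, made up most of these sums, with S100a8 at 3.05 to 37.8 CPM in WT and 196 to 982 CPM in P131S. Ms4a3, a gene of granulocyte precursors, was at 0.0377 to 1.46 CPM in WT, 23.8 to 56.9 CPM in P131S and 13.9 to 97.1 CPM in H137Y. Cpa3, the mast cell carboxypeptidase, was at 15.8 to 46.3 CPM in WT, 97.0 to 239 CPM in P131S and 17.4 to 80.7 CPM in H137Y. Mpo, which encodes myeloperoxidase, was at or below 1.34 CPM in WT, 3.21 CPM in P131S and 15.5 CPM in H137Y, and Prtn3 was at 22.6 to 58.1 CPM in all 3 groups. Elane, Ms4a2 and Fcer1a, the remaining genes of the list, were at 0 in WT and at or below 0.673 CPM in the Rps15 genotypes. The part of these markers in every difference between an Rps15 genotype and other cells below was not tested. P131S clone 20, which carried the highest levels of most members, had the lowest myeloid sum of the P131S clones. A link between these levels was not tested, and 3 clones are too few to show one.

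Sequences just upstream of the start site are shown for the members with the largest RNA rises in P131S (Mrpl36, Mrpl20, Mrpl34) and the largest RNA falls in H137Y (Mrpl1, Mrps22, Mrpl24), because these 6 genes mark the ends of the range described below. Each is the 250 bases before the RefSeq transcription start on build GRCm38.p6, 5′ to 3′ on the strand of the gene. Matches to 4 motifs known from promoters of nuclear genes for mitochondrial proteins are in capitals: NRF1 as GCATGCGC, the ETS family as CCGGAAG, YY1 as AAGATGGC and the E-box as CACGTG, each searched on both strands, with no overlap between the matches shown. The windows lie on the forward strand at chr13:73330759-73331008 (Mrpl36), chr4:155802628-155802877 (Mrpl20), chr8:71464676-71464925 (Mrpl34), chr5:96209865-96210114 (Mrpl1) and chr3:87919294-87919543 (Mrpl24), and on the reverse strand at chr9:98601680-98601929 (Mrps22).
Mrpl36: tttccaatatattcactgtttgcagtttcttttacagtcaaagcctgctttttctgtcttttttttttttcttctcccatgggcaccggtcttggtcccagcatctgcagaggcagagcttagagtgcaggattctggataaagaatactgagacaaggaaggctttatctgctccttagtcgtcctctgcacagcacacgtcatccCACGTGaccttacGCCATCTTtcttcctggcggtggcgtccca
Mrpl20: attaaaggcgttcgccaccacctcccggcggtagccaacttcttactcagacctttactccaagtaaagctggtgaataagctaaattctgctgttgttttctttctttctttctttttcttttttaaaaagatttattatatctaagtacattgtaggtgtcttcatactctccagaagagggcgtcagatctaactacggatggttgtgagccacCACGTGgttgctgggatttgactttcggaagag
Mrpl34: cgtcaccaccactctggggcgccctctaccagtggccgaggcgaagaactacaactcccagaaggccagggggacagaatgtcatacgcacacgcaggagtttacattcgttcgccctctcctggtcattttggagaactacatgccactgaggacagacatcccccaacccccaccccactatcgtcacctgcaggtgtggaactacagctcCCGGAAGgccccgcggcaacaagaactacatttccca
Mrpl1: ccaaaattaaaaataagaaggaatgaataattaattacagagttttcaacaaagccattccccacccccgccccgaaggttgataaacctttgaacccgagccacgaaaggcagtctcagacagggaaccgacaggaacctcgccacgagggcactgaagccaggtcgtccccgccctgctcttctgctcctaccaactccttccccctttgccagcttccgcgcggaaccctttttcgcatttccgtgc
Mrps22: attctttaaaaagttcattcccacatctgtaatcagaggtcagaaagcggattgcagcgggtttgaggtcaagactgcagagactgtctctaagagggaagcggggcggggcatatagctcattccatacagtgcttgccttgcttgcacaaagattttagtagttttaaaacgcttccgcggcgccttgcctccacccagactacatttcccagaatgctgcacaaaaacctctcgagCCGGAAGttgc
Mrpl24: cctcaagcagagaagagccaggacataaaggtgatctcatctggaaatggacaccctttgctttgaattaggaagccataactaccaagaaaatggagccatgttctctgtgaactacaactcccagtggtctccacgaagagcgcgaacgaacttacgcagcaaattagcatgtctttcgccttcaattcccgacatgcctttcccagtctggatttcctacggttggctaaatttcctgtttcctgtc

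Among these windows, that of Mrpl36 held a YY1 match on the opposite strand and an E-box, 30 and 43 bases before the start. Mrpl20 held an E-box 33 bases before the start. An ETS match lay 37 bases before the start in Mrpl34 and 11 bases before it in Mrps22, so the same letters stood before a gene that rose and a gene that fell. Mrpl1 and Mrpl24 held none of the 4 motifs, which says only that these letters are absent from these windows. RefSeq gave 75 windows for 69 of the 78 members. These windows run past the start, and the shares that follow count matches over their whole length. The ETS letters were in 34.7% of the members' windows, against 8.86% of all 32851 windows and 11.6% of the 21263 windows of protein-coding genes. YY1 was in 16.0% of the members' windows, against 2.75% of all windows and 3.05% of those of protein-coding genes. NRF1 was in 10.7%, against 2.71% of all and 3.52% of those of protein-coding genes. The E-box was in 9.33% of the members' windows and 7.15% of all, but counted by gene it was in 5 of 69 members (7.25%) and 8.09% of all genes. Among protein-coding genes it was in 7.8% of windows and 8.9% of genes. Members' windows had a median GC content of 58.7%, against 52.7% for all windows and 56.3% for those of protein-coding genes. RNA of members with an ETS match rose in P131S for 16 of 26, and of those without one for 23 of 43, while 0 and 2 of them fell. Of all genes tested, 23.7% were called higher and 23.4% lower in P131S. The median log2 change was 0.26 with a match and 0.22 without one, and a link to the motif was not tested.

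RNA of the 78 genes together took a larger share of the library in P131S clones than in any other clone. Their summed level was 4360 to 4509 CPM in WT, with a mean of 4418 ± 79.5 CPM (SD, n = 3). P131S clones 24, 63 and 20 stood at 5249, 5046 and 6120 CPM, a mean of 5472 ± 571 CPM (SD, n = 3), and did not overlap with the other 21 clones. H137Y clones lay at 4375 to 4558 CPM, around the WT clones. The large-subunit genotypes lay between 4205 and 4801 CPM, with Rpl10 R98S at 4706 to 4801 CPM and Rpl22-/- at 4490 to 4773 CPM. In the footprint libraries, the sum was 4648 to 5011 CPM in WT and 5320, 5178 and 5983 CPM in P131S clones 24, 63 and 20. Footprint sums of Rpl10 R98S clones were 5040 to 5263 CPM, those of H137Y clones 4791 to 5166 CPM, and those of the other large-subunit genotypes 4460 to 5025 CPM. CPM here are depth-normalised counts on library sizes scaled by TMM, so a sum is a share of the library and not an amount per cell.

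**Figure D1:**
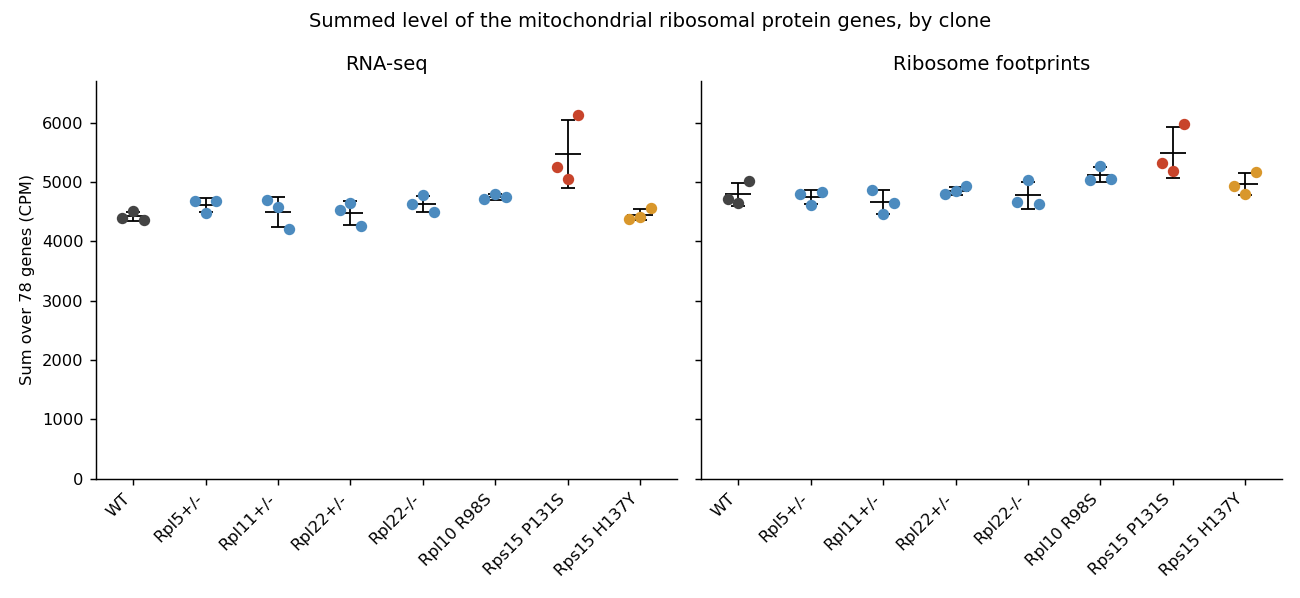
Summed level of the 78 genes in CPM (vertical axis, from 0) for each of the 3 clones of 8 genotypes, in RNA-seq (left) and ribosome footprints (right); points are clones, bars are the mean ± SD of 3 clones. The P131S clones, at 5046 to 6120 CPM in RNA, lie above all other RNA clones, while the H137Y clones lie among the WT clones.

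In Rps15 P131S cells, RNA of 42 of the 78 members rose and that of 2 fell against WT (edgeR quasi-likelihood test, Benjamini-Hochberg adjusted p under 0.05 over all 12814 genes). Over all genes tested in this comparison, 23.7% were called higher and 23.4% lower. The members' median log2 change was 0.23, with 67 of 78 positive, while the median over all genes was -0.01. Rises were called for 17 of 26 small-subunit genes and 24 of 51 large-subunit genes, and for 27 of 45 bacterial-type and 15 of 33 mitochondria-specific genes. Both falls were bacterial-type large-subunit genes. Counted clone by clone, 60, 51 and 72 members stood above all 3 WT clones in P131S clones 24, 63 and 20, and 9, 14 and 4 stood below them. Of all genes tested, 39.7%, 40.2% and 41.3% stood above all WT clones in these libraries, and 40%, 41.7% and 43.7% below. In the large-subunit genotypes, 14 to 55 members stood above all WT clones, the most in Rpl22-/- clone 30, and 4 to 46 below them. Of all genes, 32% to 39.2% stood above in these libraries (35.3% in Rpl22-/- clone 30) and 29.6% to 38.3% below. P131S clone 20 held the highest P131S value for 69 of the 78 members. Without it, 30 members were higher and 5 lower, and the median change was 0.14. The share of all genes called was not computed for fits that leave out a clone, here or below. Whether a shift in such a count is particular to the members was therefore not tested. Of the 44 calls, 31 held in each of the 6 fits that left out 1 WT or P131S clone.

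The largest rise was that of Mrpl36, relative of the smallest protein of the bacterial large subunit. Mrpl36 RNA was 46.1, 50.0 and 48.9 CPM in WT clones 3, 2 and 1, and 93.4, 89.6 and 113 CPM in P131S clones 24, 63 and 20. Every P131S clone was well above every WT clone, and the log2 change was 1.03 ± 0.09 (SE, adjusted p = 1.02e-07 by edgeR). The order of clones is the same in all sentences that follow. Mrpl20, relative of the bacterial L20 that acts early in large-subunit assembly, was at 76.4, 82.3 and 76.0 CPM in WT and at 138, 135 and 192 CPM in P131S. Its P131S clones were likewise above all WT clones, with clone 20 the highest, and the log2 change was 0.99 ± 0.12 (edgeR adjusted p = 1.43e-06).

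Mrpl34, another relative of a small bacterial large-subunit protein, went from 42.2, 46.4 and 49.4 CPM in WT to 82.9, 76.6 and 96.5 CPM in P131S, a log2 change of 0.89 ± 0.09 (edgeR adjusted p = 3.04e-07). Mrpl21 was at 66.2, 60.6 and 66.6 CPM in WT and at 112, 108 and 136.6 CPM in P131S. The groups did not overlap, and the log2 change was 0.88 ± 0.08 (edgeR adjusted p = 1.29e-07). Mrpl12, which forms the flexible stalk that contacts translation factors, was at 130.8, 143 and 135 CPM in WT and at 204, 203 and 278 CPM in P131S. Its log2 change was 0.75 ± 0.09 (edgeR adjusted p = 2.74e-06), and again clone 20 stood above the other P131S clones.

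The 2 members that fell were Mrpl24, relative of an early-binding bacterial assembly protein, and Mrpl1, which corresponds to the protein of the L1 stalk near the site where spent tRNA leaves. Mrpl24 RNA was 92.2, 88.2 and 84.5 CPM in WT and 74.6, 64.4 and 69.4 CPM in P131S. All P131S clones were below all WT clones, and Mrpl24 fell by 0.35 on the log2 scale (SE 0.07, edgeR adjusted p = 0.000543). Mrpl1 was at 41.0, 39.5 and 37.5 CPM in WT and at 30.7, 29.3 and 38.3 CPM in P131S, where clone 20 lay within the WT range. Its log2 change was -0.26 ± 0.10 (edgeR adjusted p = 0.0395). The Mrpl1 call was lost without WT clone 2 or 3 or P131S clone 24 or 63 (adjusted p up to 0.181), and the change was -0.40 without clone 20.

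**Figure D2:**
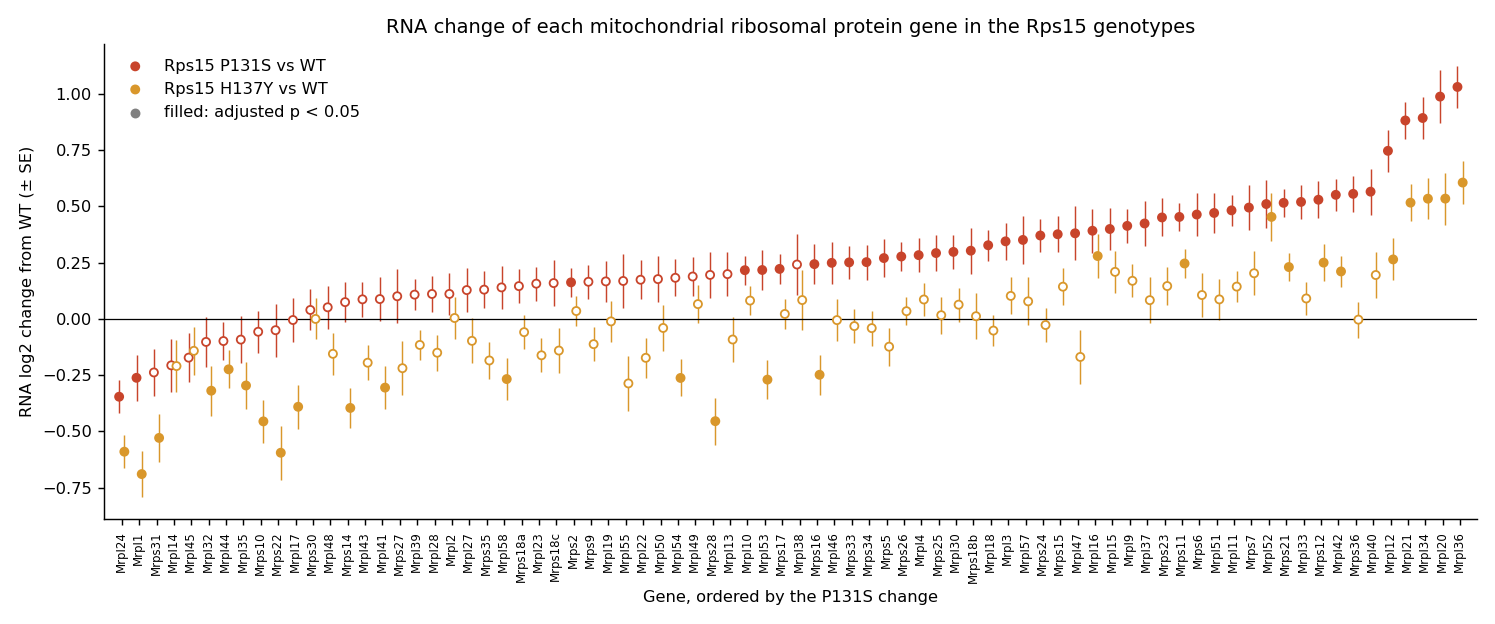
RNA log2 change from WT (vertical axis, ± SE) of each of the 78 genes, ordered by the change in Rps15 P131S, for P131S and H137Y; filled points have an adjusted p under 0.05. Most P131S points lie above 0, from -0.35 (Mrpl24) to 1.03 (Mrpl36), while the H137Y points lie on both sides of 0.

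In Rps15 H137Y cells, RNA of 11 members rose and that of 16 fell against the same WT clones. Over all genes 21% were higher and 20% lower, so the lower share is near the background and the higher share under it. The median log2 change of the members was -0.02, with 35 of 78 positive, and that of all genes was 0.01. Rises and falls were both spread over the subunits: 8 rose and 10 fell among the large-subunit genes, and 3 rose and 6 fell among the small-subunit genes. Of bacterial-type genes 9 rose and 9 fell, and of mitochondria-specific genes 2 rose and 7 fell. Clones 16, 6 and 2 had 24, 31 and 33 members above all WT clones and 41, 39 and 29 below them, while 40.6%, 40.8% and 42.1% of all genes stood above and 40.3%, 41.3% and 41% below. Leaving out any 1 WT or H137Y clone gave 18 to 25 calls in place of 27, and 15 of the 27 held in each of these 6 fits. Both Rps15 comparisons share the WT clones, so likeness between them is not a separate result.

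The genes with the largest rises in P131S also stood at the top in H137Y, at lower values. Mrpl36 RNA was 71.5, 65.9 and 83.2 CPM in H137Y clones 16, 6 and 2, above every WT clone, with a log2 change of 0.61 ± 0.09 (edgeR adjusted p = 3.96e-05). Mrpl20 was at 109.5, 109 and 121 CPM, a log2 change of 0.53 ± 0.12 (edgeR adjusted p = 0.000942). Mrpl34 was at 68.8, 59.9 and 71.1 CPM and Mrpl21 at 93.8, 86.0 and 96.9 CPM. Both rose, by 0.53 and 0.52 on the log2 scale (edgeR adjusted p = 0.000105 and 5.76e-05). Mrpl52, a mitochondria-specific large-subunit gene, was at 68.7, 69.0 and 65.3 CPM in WT, at 104, 76.8 and 97.5 CPM in H137Y and at 86.5, 94.7 and 108 CPM in P131S. Its H137Y change was 0.45 ± 0.11 (edgeR adjusted p = 0.00175) and its P131S change 0.51 ± 0.11 (edgeR adjusted p = 0.000525). It differed between the Rps15 genotypes by only 0.06 ± 0.11 (edgeR adjusted p = 0.744).

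The largest fall in H137Y was that of Mrpl1, at 21.7, 25.9 and 25.6 CPM against 37.5 to 41.0 CPM in WT, a log2 change of -0.69 ± 0.10 (edgeR adjusted p = 2.41e-05). Mrpl24 was at 58.3, 59.7 and 58.0 CPM, below every WT and every P131S clone, with a log2 change of -0.59 ± 0.07 (edgeR adjusted p = 2.73e-06). The other large falls were in small-subunit genes. Mrps22, a mitochondria-specific gene linked to human respiratory chain disease, was at 33.9, 33.4 and 30.5 CPM in WT, at 18.7, 24.3 and 21.7 CPM in H137Y and at 28.6, 27.2 and 38.5 CPM in P131S. It fell by 0.59 on the log2 scale in H137Y (SE 0.12, edgeR adjusted p = 0.000465), and its P131S clones overlapped with WT. Mrps31, also mitochondria-specific and the least abundant member on average in WT RNA, was at 8.89, 8.99 and 9.88 CPM in WT and 6.15, 6.39 and 6.71 CPM in H137Y (log2 change -0.53 ± 0.10, edgeR adjusted p = 0.000417). Mrps10, whose bacterial relative sits in the small-subunit head, was at 50.9, 52.2 and 52.8 CPM in WT and 38.5, 37.4 and 37.8 CPM in H137Y (log2 change -0.46 ± 0.09, edgeR adjusted p = 0.000653).

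**Figure D3:**
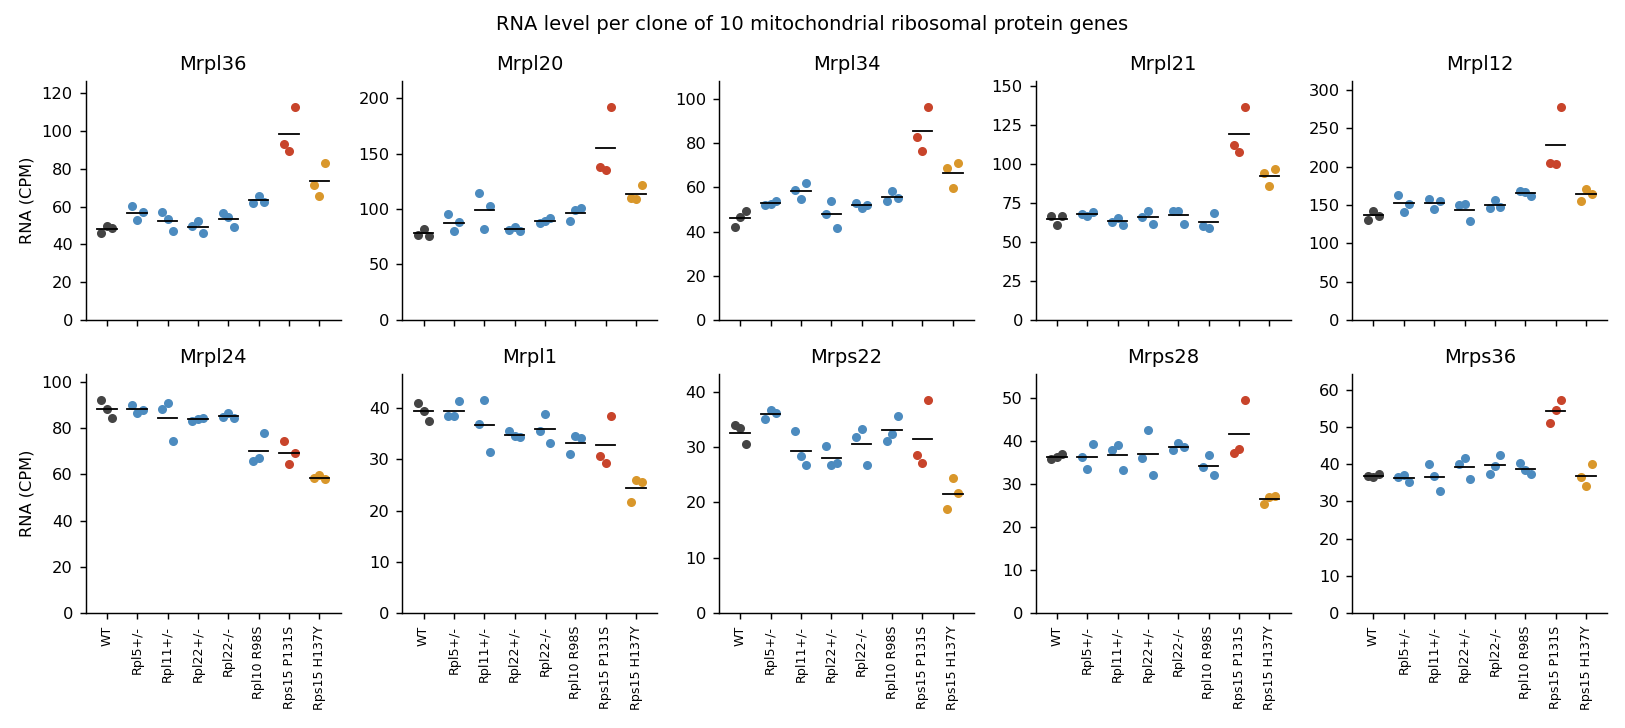
RNA level in CPM (vertical axes, from 0, one scale per gene) of 10 of the genes in each clone of the 8 genotypes; points are clones and black lines are means of 3 clones. Mrpl36, Mrpl20, Mrpl34, Mrpl21 and Mrpl12 are highest in P131S, Mrpl24, Mrpl1 and Mrps22 are lowest in H137Y, and Mrps36 is raised in P131S (51.1 to 57.3 CPM) but not in H137Y (34.03 to 40.0 CPM).

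Compared directly, which uses no WT clone, P131S cells had higher RNA than H137Y cells for 57 of the 78 members and lower RNA for none, where 12.6% of all genes were higher in P131S. The difference was positive for 77 of 78, with a median of 0.29 on the log2 scale against -0.02 over all genes. It was called for 24 of 26 small-subunit genes, 32 of 51 large-subunit genes and Mrps36, and for 34 of 45 bacterial-type and 23 of 33 mitochondria-specific genes. Clones did not overlap for 51 of the 57. Of all genes, 11% were called higher with clones that did not overlap, which is 87.4% of the higher calls. Without P131S clone 20 the count was 29, with 74 of 78 differences still positive and a median of 0.21, and 27 of the 57 calls held without any 1 of the 6 clones. A fit of these 2 genotypes alone, which takes the spread from their clones only, called 3 members. It called 378 of 12069 genes in either direction, against 3234 of 12814 in the main fit. The cause of that drop was not tested.

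Mrps28, a small-subunit gene that corresponds to bacterial S1, was at 35.9, 36.2 and 36.9 CPM in WT, at 37.1, 38.2 and 49.5 CPM in P131S and at 25.4, 26.9 and 27.3 CPM in H137Y. The difference between the Rps15 genotypes was 0.65 ± 0.10 (edgeR adjusted p = 0.000153). It fell in H137Y (-0.45, edgeR adjusted p = 0.00155), and its P131S change was 0.20 (edgeR adjusted p = 0.129). Mrps36 was at 36.8, 36.6 and 37.5 CPM in WT, at 51.1, 54.5 and 57.3 CPM in P131S and at 36.6, 34.03 and 40.0 CPM in H137Y. Its difference was 0.56 ± 0.08 (edgeR adjusted p = 4.12e-05), with no overlap. Mrps36 rose in P131S by 0.56 on the log2 scale (edgeR adjusted p = 1.2e-05).

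Mrpl47, relative of bacterial L29 at the tunnel exit, was at 40.2, 40.4 and 61.9 CPM in P131S and 29.3, 33.4 and 34.9 CPM in H137Y, a difference of 0.55 ± 0.12 (edgeR adjusted p = 0.00225). Clone 20 was far above the other P131S clones there, and the difference was 0.31 without it (edgeR adjusted p = 0.0188). Mrps22 differed by 0.54 ± 0.12 (edgeR adjusted p = 0.00216). Mrps16, a bacterial-type small-subunit gene, was at 89.6, 90.2 and 79.5 CPM in WT, at 93.9, 95.1 and 118 CPM in P131S and at 68.7, 71.4 and 78.3 CPM in H137Y. It was called in opposite directions against WT (0.24, edgeR adjusted p = 0.0268 and -0.25, edgeR adjusted p = 0.0276) and differed by 0.49 ± 0.09 (edgeR adjusted p = 0.000404). The Mrps16 rise was lost without WT clone 1 or P131S clone 20 (adjusted p up to 0.262, log2 change 0.12 without clone 20), and its fall without WT clone 2 or 3 or H137Y clone 6 or 16 (adjusted p up to 0.109). With the 2 genotypes alone, Mrps16 had an adjusted p of 0.0587, Mrps22 of 0.0937 and Mrpl47 of 0.118.

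Members with a known special role varied among themselves. In the stalk, Mrpl11 RNA was 75.9, 83.2 and 76.9 CPM in WT, 105, 102 and 123 CPM in P131S and 88.4, 85.8 and 86.5 CPM in H137Y. It rose in P131S (0.48, edgeR adjusted p = 1.27e-05), and its H137Y change was 0.14 (edgeR adjusted p = 0.105). Mrpl10, the stalk base that anchors Mrpl12, was at 69.4, 72.9 and 70.2 CPM in WT and 80.6, 79.5 and 86.8 CPM in P131S. It rose by 0.22 on the log2 scale (edgeR adjusted p = 0.00896), a call lost without clone 20 (adjusted p = 0.0583). Mrpl12 rose in H137Y too, at 155, 171 and 165 CPM (0.26, edgeR adjusted p = 0.0277), and that call was lost when WT clone 1 or 3 or H137Y clone 2 or 6 was left out (adjusted p = 0.059 to 0.0999).

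In the conserved core, Mrpl3, which reaches into the peptidyl transferase region, was at 72.5, 77.0 and 73.3 CPM in WT and 88.1, 83.9 and 111 CPM in P131S, a rise of 0.34 (edgeR adjusted p = 0.00176), or 0.20 without clone 20 (edgeR adjusted p = 0.0235). Mrps12, part of the decoding centre, was at 34.1, 37.0 and 34.8 CPM in WT, 51.5, 46.3 and 55.0 CPM in P131S and 43.4, 38.5 and 44.0 CPM in H137Y. It rose in both, by 0.53 (edgeR adjusted p = 2.49e-05) and 0.25 (edgeR adjusted p = 0.0176), and the H137Y call was lost without WT clone 1 or 3 or H137Y clone 2 or 16 (adjusted p = 0.0561 to 0.0714). Mrpl58, a peptidyl-tRNA hydrolase built into the large subunit, was at 30.5, 31.4 and 28.4 CPM in WT, 32.4, 31.5 and 35.5 CPM in P131S and 24.2, 27.1 and 23.7 CPM in H137Y. It fell in H137Y (-0.27, edgeR adjusted p = 0.0272), and its P131S change was 0.14 (edgeR adjusted p = 0.234). The Mrpl58 fall was lost without WT clone 2 or 3 or H137Y clone 2 or 16 (adjusted p = 0.068 to 0.0929).

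The 3 relatives of bacterial S18 occupy different places in the mitoribosome. Of these, Mrps18b rose in P131S (30.1, 34.3 and 31.9 CPM in WT, 36.0, 34.9 and 47.7 CPM in P131S, log2 change 0.30, edgeR adjusted p = 0.0188), and the call was lost without WT clone 1 or 3 or P131S clone 20 (adjusted p = 0.0505 to 0.236, log2 change 0.14 without clone 20). Mrps18a and Mrps18c changed by 0.15 and 0.16 in P131S (edgeR adjusted p = 0.114 and 0.204) and by -0.06 and -0.14 in H137Y (edgeR adjusted p = 0.557 and 0.278). Mrps30, a large-subunit protein in spite of its name, was at 51.4, 54.6 and 54.6 CPM in WT, 54.9, 50.8 and 59.4 CPM in P131S and 53.1, 54.8 and 52.7 CPM in H137Y. Its clones overlapped in every Rps15 comparison, with a P131S change of 0.04 ± 0.09 (edgeR adjusted p = 0.754).

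Few members passed the test in the large-subunit genotypes. In Rpl5+/- cells 2 rose and none fell, where 0.624% of all genes were higher. Mrpl33, a bacterial-type large-subunit gene, was at 97.0, 97.3 and 105 CPM in Rpl5+/- clones 80, 76 and 68 against 77.5, 77.0 and 77.0 CPM in WT (log2 change 0.37 ± 0.07, edgeR adjusted p = 0.0247). Mrpl42, a mitochondria-specific large-subunit gene, was at 95.1, 93.7 and 99.7 CPM against 74.4, 78.1 and 78.01 CPM (0.32 ± 0.07, edgeR adjusted p = 0.0315). The Rpl5+/- clones lay above all WT clones in both genes, but leaving out any 1 of the 6 clones ended both calls.

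In Rpl11+/- cells 4 members rose and 1 fell, where 5.73% of all genes were higher and 6.05% lower. Mrpl33 and Mrpl42 rose here too, by 0.28 (edgeR adjusted p = 0.0171) and 0.27 (edgeR adjusted p = 0.0183), against the same WT clones. Mrpl52 rose by 0.37 ± 0.11 (edgeR adjusted p = 0.0259) and Mrpl34 by 0.35 ± 0.09 (edgeR adjusted p = 0.0183). Mrpl28, a bacterial-type large-subunit gene, was at 52.5, 53.1 and 40.8 CPM in clones 406, 414 and 22 against 63.0, 64.1 and 60.2 CPM in WT. All Rpl11+/- clones were below WT, with clone 22 the lowest, and Mrpl28 fell by 0.36 on the log2 scale (SE 0.08, edgeR adjusted p = 0.00673). The count of 5 went to 9 without clone 414, and to 3, 2 and 1 without WT clones 1, 2 and 3, 2 without clone 22 and 1 without clone 406.

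No member's RNA passed edgeR's test in Rpl22+/- or Rpl22-/- cells, where 3.9% and 5.27% of all genes were called in either direction. Unadjusted p-values under 0.05 were found for 1 and 7 members, and for 15.5% and 18% of all genes. Limma voom called none in either, and DESeq2 called 0 and 2, where it called 708 and 903 of all 12814 genes. Cells with Rpl10 R98S had 7 members higher and 1 lower, with 6.82% of all genes higher and 6.03% lower, and a median change of 0.08. Mrps34, a mitochondria-specific small-subunit gene, was at 63.4, 64.7 and 61.8 CPM in clones A30, A29 and A34 against 43.2, 45.4 and 44.1 CPM in WT. The clones of each group lay close together and far from the other group (0.52 ± 0.08, edgeR adjusted p = 0.00023). Mrpl38, Mrpl36, Mrpl13, Mrpl42, Mrps26 and Mrpl12 rose by 0.28 to 0.41 on the log2 scale, with Mrpl36 at 62.2, 65.7 and 62.7 CPM (edgeR adjusted p = 0.00913). The rises of Mrpl38 and Mrpl12 were at the edge of the threshold (edgeR adjusted p = 0.0489 and 0.0499). Leaving out any 1 of the 6 clones ended the calls of Mrpl38 and Mrpl13 (edgeR adjusted p = 0.0934 to 0.136 and 0.0531 to 0.0918). Those of Mrpl36 and Mrpl42 were lost without WT clone 3 (edgeR adjusted p = 0.0522 and 0.053). Mrpl24 fell here as in both Rps15 genotypes, from 92.2, 88.2 and 84.5 CPM to 65.8, 67.2 and 77.8 CPM (-0.33 ± 0.07, edgeR adjusted p = 0.00479), against the same WT clones. The 8 calls went to 3 without WT clone 3, to 5 without any other clone of either group, and to 34 when these 2 genotypes were fitted alone. That last fit called 4216 of 11917 genes in either direction, against 1647 of 12814 in the main fit.

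With both Rps15 genotypes set against the 5 large-subunit genotypes, a comparison of 6 with 15 clones that uses no WT clone, 29 members were higher and 12 lower. Of all genes, 26.8% were higher and 25.9% lower, and the members' median was 0.05. The clones did not overlap for 2 of these members, and 6.06% of all genes were called with clones that did not overlap. Mrpl21 had a mean of 105 CPM in the Rps15 clones and 65.2 CPM in the large-subunit clones (0.68 ± 0.05, edgeR adjusted p = 6.64e-10), and Mrpl36 86.1 and 55.2 CPM (0.63 ± 0.05, edgeR adjusted p = 9.32e-09). Mrpl24 and Mrpl1 were lower in the Rps15 clones, by -0.36 and -0.34 on the log2 scale, also with no WT clone in the comparison (edgeR adjusted p = 7.39e-07 and 8.52e-05).

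Ribosome footprints count the fragments of a message that cytosolic ribosomes cover. The spread between clones was wider in them: the median coefficient of variation of a member over the WT clones was 11.2%, against 3.61% in RNA. Footprints of 16 members rose and none fell in P131S, with 8.42% of all 16217 genes tested higher. Unadjusted p-values under 0.05 were found for 29 members and for 29.4% of all genes. The median change was 0.18, with 60 of 78 positive, against -0.04 over all genes. Of the 16, 13 were large-subunit and 3 small-subunit genes. In P131S clones 24, 63 and 20, 40, 38 and 59 members were above all WT clones, as were 31.3%, 32.3% and 33.1% of all genes. Clone 20 was again the highest for most, at 52 of 78, and without it 7 members rose and the median was 0.11. Of the 16 calls, 4 held without any 1 of the 6 clones.

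Mrpl21 had the largest footprint rise, from 84.3, 75.2 and 81.8 CPM in WT to 173, 158 and 197 CPM in P131S (1.13 ± 0.14, edgeR adjusted p = 3.69e-05). All 3 P131S clones were far above WT. Mrpl20 footprints were 108, 121 and 123 CPM in WT and 145, 186 and 236 CPM in P131S (0.69 ± 0.15, edgeR adjusted p = 0.00387). Mrpl30, a bacterial-type large-subunit gene, had 61.0, 46.6 and 45.3 CPM in WT and 65.8, 70.2 and 118 CPM in P131S, with clone 20 well above the others (0.73 ± 0.19, edgeR adjusted p = 0.00999, and 0.114 without clone 20). Mrpl57, a mitochondria-specific gene, had 13.6, 10.0 and 10.2 CPM in WT and 22.1, 15.2 and 15.9 CPM in P131S (0.65 ± 0.21, edgeR adjusted p = 0.0338). Mrps18b had 30.0, 40.8 and 32.2 CPM in WT and 45.8, 51.8 and 63.4 CPM in P131S (0.64 ± 0.20, edgeR adjusted p = 0.0304). The Mrpl57 call was lost without WT clone 1 or 2 or P131S clone 24 (adjusted p = 0.102 to 0.138), and that of Mrps18b without WT clone 1 or 3 or clone 20 (adjusted p = 0.101 to 0.172).

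All 3 stalk genes had more footprints in P131S: Mrpl10 by 0.55 (edgeR adjusted p = 0.0143), Mrpl12 by 0.50 (edgeR adjusted p = 0.0262) and Mrpl11 by 0.48 (edgeR adjusted p = 0.0188) on the log2 scale. The Mrpl10 and Mrpl12 calls were lost without P131S clone 20 (adjusted p = 0.0906 and 0.0976) or WT clone 1 or 2, that of Mrpl12 also without clone 24, and that of Mrpl11 without clone 24 (adjusted p = 0.0575). Footprints of the core genes were not called: Mrpl3 was at 121, 146 and 162 CPM in WT and 123, 113 and 112 CPM in P131S (-0.30 ± 0.13, edgeR adjusted p = 0.14), and Mrps12 at 6.16 to 6.89 CPM in WT and 7.78 to 10.0 CPM in P131S (0.46 ± 0.27, edgeR adjusted p = 0.288). Mrps18a, Mrps30, Mrps36 and Mrpl58 had changes of 0.09, 0.07, 0.34 and 0.01 in P131S, none past the threshold.

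In H137Y, footprints of 8 members rose and those of 6 fell, where 5.22% of all genes were higher and 6.44% lower, and the median change was 0.05 with 45 of 78 positive. Mrpl42 footprints were 64.6, 69.0 and 89.0 CPM in WT and 102, 118 and 130.1 CPM in H137Y (0.66 ± 0.14, edgeR adjusted p = 0.00496). Mrpl11 footprints were 63.0, 61.4 and 64.5 CPM in WT, 95.0, 93.9 and 101 CPM in H137Y and 98.4, 85.3 and 80.3 CPM in P131S, a rise of 0.62 in H137Y (edgeR adjusted p = 0.00571). Both H137Y groups lay above all their WT clones. Mrpl20 rose by 0.62, Mrpl21 by 0.59 and Mrpl36 by 0.56 (edgeR adjusted p = 0.0117, 0.00806 and 0.0135), which were also among the genes whose RNA rose. The Mrpl36 call was lost without WT clone 1 or 2 or H137Y clone 2 (adjusted p up to 0.0605), and that of Mrpl20 without WT clone 3 (adjusted p = 0.0622). Mrps18c, whose RNA was not called, had 107, 87.3 and 85.3 CPM in WT and 123, 118 and 134 CPM in H137Y (0.43 ± 0.13, edgeR adjusted p = 0.0326). That call was lost without WT clone 1 or 2 or H137Y clone 2 or 16 (adjusted p = 0.0702 to 0.149), without the filter on low counts (0.128) and with these 2 genotypes fitted alone (0.0748).

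The largest footprint fall in H137Y was that of Mrps10, from 32.1, 33.9 and 34.6 CPM to 22.2, 20.2 and 16.1 CPM (-0.79 ± 0.16, edgeR adjusted p = 0.00331). Mrpl17 went from 165, 139.7 and 148 CPM to 105, 96.3 and 114 CPM (-0.52 ± 0.16, edgeR adjusted p = 0.0354), and Mrpl24 from 125, 114 and 132 CPM to 95.9, 99.3 and 81.2 CPM (-0.42 ± 0.10, edgeR adjusted p = 0.0107). In each of these genes every H137Y clone was below every WT clone. Mrpl48 and Mrpl13 fell by 0.48 and 0.39 on the log2 scale (edgeR adjusted p = 0.0301 and 0.0458). The Mrpl48 call was lost without WT clone 1 or 3 or H137Y clone 6 or 16, and the change was -0.28 (edgeR adjusted p = 0.101) once the counts of its pseudogene were added. The Mrpl13 call was lost without any 1 of the 6 clones but WT clone 3, with a change of -0.23 without WT clone 1 (edgeR adjusted p = 0.305), and with RLE scaling (adjusted p = 0.057). Mrpl58 fell from 62.9, 62.1 and 65.5 CPM to 51.5, 51.9 and 46.2 CPM (-0.35 ± 0.10, edgeR adjusted p = 0.0209), a call lost without any WT clone or H137Y clone 2 (adjusted p = 0.0569 to 0.103). The Mrpl24 call was lost without WT clone 1 or H137Y clone 2 (adjusted p up to 0.0594). Without WT clone 1, WT clone 2 or H137Y clone 2 the 14 footprint calls in H137Y went to 6, 8 and 6, 4 of the 14 held without any 1 of the 6 clones, and the Mrpl17 call was lost without any 1 of the 6 clones (adjusted p = 0.0502 to 0.137).

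Footprints were higher in P131S than in H137Y for 4 members, where 2.23% of all genes were higher, with a median difference of 0.15 and 60 of 78 positive. These were Mrps18b (35.4, 26.2 and 28.9 CPM in H137Y, difference 0.83 ± 0.20, edgeR adjusted p = 0.0215), Mrpl9 (43.5, 46.6 and 49.6 CPM in P131S and 32.5, 21.7 and 33.6 CPM in H137Y, 0.67 ± 0.17, edgeR adjusted p = 0.0255), Mrpl21 (0.54 ± 0.14, edgeR adjusted p = 0.0295) and Mrpl58 (0.36 ± 0.10, edgeR adjusted p = 0.0351). None of the 4 was called without P131S clone 20, and 1 was called without H137Y clone 2 or without clone 6. A fit of these 2 genotypes alone called no member and 34 of 14008 genes.

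In the large-subunit genotypes no member's footprints passed edgeR's test in Rpl5+/-, Rpl11+/-, Rpl22+/- or Rpl22-/-, where 0.0123%, 0.074%, 0.253% and 0.105% of all genes were called in either direction. Unadjusted p-values under 0.05 were found for 1, 2, 15 and 4 members, and for 4.11%, 9.87%, 13.7% and 6.74% of all genes. Limma voom called none, and DESeq2 called 1 in Rpl22+/- (406 of all 16217 genes) and none in the others. In Rpl10 R98S the only member called was Mrps30, at 75.1, 78.9 and 82.0 CPM against 61.7, 63.0 and 60.6 CPM in WT (0.35 ± 0.08, edgeR adjusted p = 0.0361), where 0.814% of all genes were higher, and leaving out any 1 of the 6 clones ended that call. With both Rps15 genotypes set against the large-subunit genotypes, footprints of 21 members were higher and those of 6 lower, with 12.4% and 12.9% of all genes. Mrpl10 was the only one of the 27 whose clones did not overlap, with a mean of 46.3 CPM against 33.7 CPM (0.46 ± 0.09, edgeR adjusted p = 0.00055), and 1.88% of all genes were called with clones that did not overlap.

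RNA and footprint changes of the 78 members against WT went together in both Rps15 genotypes. Across genes, Pearson's r was 0.60 in P131S, with the same sign for 61 of 78, and 0.57 in H137Y, with the same sign for 50. These values share the WT clones. For P131S against H137Y, which uses no WT clone, r was 0.29, with the same sign for 59 of 78. In the large-subunit genotypes against WT, r ran from 0.12 in Rpl22-/- to 0.48 in Rpl10 R98S. Both measures come from the same lysates and genes are not independent replicates, so no p is given. In P131S, 14 members were called in both measures, all in the same direction, which is 31.8% of the RNA calls and 87.5% of the footprint calls. In H137Y 8 were called in both, again all in the same direction, 29.6% of the RNA calls and 57.1% of the footprint calls. The 2 members with a footprint call and no RNA call in P131S were Mrpl2 and Mrpl27, both bacterial-type large-subunit genes, at 0.40 and 0.56 on the log2 scale, named after their values were seen. The Mrpl2 call was lost without WT clone 1 or 2 or P131S clone 20 or 24 (adjusted p up to 0.229).

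**Figure D4:**
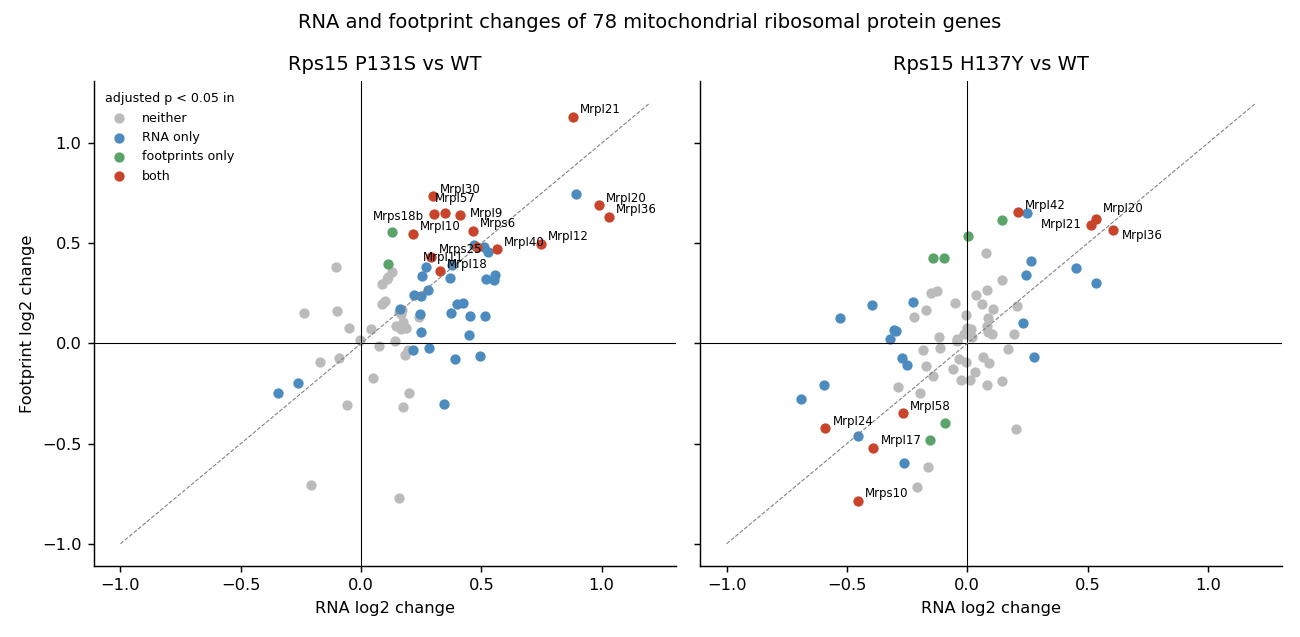
Footprint log2 change (vertical axis) against RNA log2 change (horizontal axis) from WT for the 78 genes in Rps15 P131S (left) and H137Y (right); colours show which measure had an adjusted p under 0.05, and the dashed line marks equal changes. In P131S 14 genes are called in both, led by Mrpl21, Mrpl20 and Mrpl36 to the upper right; in H137Y the 8 genes called in both lie in both corners.

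Translational efficiency, the footprint change beyond the RNA change, was tested as the interaction of assay and genotype over 16568 genes. In P131S 1 member was lower and none higher, where 2.26% of all genes were lower. This was Mrpl3, whose log2 ratio of footprints to RNA was 0.73, 0.92 and 1.14 in WT, 0.48, 0.43 and 0.01 in P131S and 0.72, 0.90 and 1.03 in H137Y. The P131S clones lay below all WT clones, with clone 20 the lowest, and the change was -0.67 ± 0.16 (edgeR adjusted p = 0.0117). Its RNA rose while its footprint count did not, as given above. With the clone number as a block, which pairs the 2 libraries of a lysate, 4 members were lower in P131S: Mrpl3 (-0.65, edgeR adjusted p = 0.00996), Mrps7 (-0.56, edgeR adjusted p = 0.0384), Mrpl16 (-0.49, edgeR adjusted p = 0.0273) and Mrpl13 (-0.45, edgeR adjusted p = 0.0321). Over all 16568 genes, the fit with the block called 806 in P131S, 299 of them higher, against 520 without it. Without the block, the Mrpl3 call was lost when WT clone 1 or 2 or P131S clone 20 was left out (adjusted p = 0.0688 to 0.165).

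In H137Y 1 member was lower in efficiency and none higher, with 2.15% of all genes lower. Mrps7, whose bacterial relative organises the small-subunit head, had log2 ratios of -1.15, -1.12 and -1.32 in WT, -1.44, -2.05 and -2.01 in H137Y and -1.64, -1.62 and -1.94 in P131S. Its H137Y change was -0.65 ± 0.19 (edgeR adjusted p = 0.0451), and its P131S change was -0.58 ± 0.18 (edgeR adjusted p = 0.0765). All clones of both Rps15 genotypes lay below all WT clones, though the H137Y call was lost when any of WT clones 1, 2 and 3 or H137Y clones 2 and 6 was left out (adjusted p = 0.109 to 0.255). With the block, Mrps7 was lower by 0.66 in H137Y (log2 change -0.66, edgeR adjusted p = 0.0171), and Mrpl2 and Mrps14 were higher, by 0.51 and 0.56 (edgeR adjusted p = 0.034 and 0.0491). Over all 16568 genes, the fit with the block called 634 in H137Y, 191 of them higher, against 457 without it.

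Between the Rps15 genotypes 1 member was lower in P131S, where 0.229% of all genes were lower. Mrpl42 had log2 ratios of -0.09, -0.31 and -0.43 in P131S, 0.28, 0.37 and 0.51 in H137Y and -0.20, -0.18 and 0.19 in WT. Of the WT clones, 2 lay within the P131S range and 1 between the Rps15 groups, and the difference was -0.68 ± 0.16 (edgeR adjusted p = 0.0323). It was lost without P131S clone 20 or 63 or H137Y clone 2 or 6 (adjusted p = 0.0911 to 0.176). With the block 2 were lower, Mrpl42 (-0.67, edgeR adjusted p = 0.028) and Mrps14 (-0.67, edgeR adjusted p = 0.0453). That fit called 155 of all 16568 genes between the Rps15 genotypes, 90 of them higher, against 113 without the block. Both Rps15 genotypes against the large-subunit genotypes gave 3 members higher and 2 lower, with 2.61% and 5.49% of all genes. Mrpl32 (0.41), Mrpl2 (0.33) and Mrpl42 (0.29) were higher and Mrps7 (-0.52) and Mrpl16 (-0.48) lower, all with overlapping clones and all named after their values were seen. With the block, 6 were higher and 3 lower, where 1640 of all 16568 genes were called, 617 of them higher. Without it, 1342 of all genes were called.

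No member's efficiency passed edgeR's test in the large-subunit genotypes, with or without the block. Of all genes 0%, 0%, 0.00604%, 0.0121% and 0.217% were called in either direction in Rpl5+/-, Rpl11+/-, Rpl22+/-, Rpl22-/- and Rpl10 R98S. Unadjusted p-values under 0.05 were found for 0, 3, 6, 4 and 7 members and for 2.72%, 3.84%, 7.97%, 5.02% and 7.52% of all genes, and limma voom and DESeq2 called none in these 5 comparisons. The median standard error of a member's log2 change was 0.09 in RNA, 0.15 in footprints and 0.18 in efficiency, so small changes of efficiency were not detectable at this depth and number of clones.

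Within WT cells, the log2 ratio of footprints to RNA had a median of 0.12 over the members, with 6 above 1 and 12 below -1. It was lowest in Mrpl23, at -5.28, followed by Mrpl57 at -2.54 and Mrps12 at -2.34, and highest in Mrps21, at 1.81, and Mrps22, at 1.18. These ratios compare shares of 2 libraries and were not tested. Mrpl23, a bacterial-type large-subunit gene at the tunnel exit, had footprints of 0 to 2.16 CPM in the 24 libraries although its RNA was 38.7 to 54.1 CPM. The annotated pseudogene Mrpl23-ps1 had footprints of 32.5 to 80.9 CPM, with RNA at or below 1.33 CPM. A short footprint that matches both sequences cannot be told apart between them, so Mrpl23 footprints and ratios are uncertain. Mrpl48 (41.6 to 78.6 CPM, copy 2.09 to 27.7 CPM) and Mrps36 (2.08 to 15.6 CPM, copy 0.0254 to 10.4 CPM) also have an annotated copy with footprints, and how footprints were divided between copy and gene was not tested. Non-whole estimated counts, more than 0.01 from a whole number in at least 1 library, were found for 12 members in RNA and 39 in footprints.

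The rest of the mitochondrial translation machinery was described from lists of its genes, to be read against the 23.7% of all genes higher and 23.4% lower in P131S, 21% and 20% in H137Y, and 12.6% higher in P131S than in H137Y. Of the 5 subunits with names outside the Mrp series, RNA of 4 rose and none fell in P131S, none rose and 1 fell in H137Y, and all 5 were higher in P131S than in H137Y. Dap3, a GTP-binding protein of the small subunit, had mean RNA of 144 CPM in WT, 142 CPM in P131S and 93.0 CPM in H137Y. It fell in H137Y by 0.63 on the log2 scale (SE 0.09, edgeR adjusted p = 8.38e-06) and did not differ by the test in P131S (-0.02, edgeR adjusted p = 0.846). Dap3 footprints fell in both, by 0.92 in H137Y and 0.40 in P131S (edgeR adjusted p = 0.000106 and 0.0316). Gadd45gip1, Ptcd3, Aurkaip1 and Chchd1, the other subunits, rose in P131S by 0.23 to 0.33, from 109 to 131.1 CPM for Aurkaip1 (edgeR adjusted p = 0.00178).

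Of 25 assembly factors tested, RNA of 6 rose (24%) and 7 fell (28%) in P131S, near the shares over all genes. In H137Y 3 rose (12%) and 10 fell (40%), and 3 were higher in P131S than in H137Y (12%). Mtg1, a GTPase of large-subunit assembly, had mean RNA of 21.4 CPM in WT and 9.48 CPM in H137Y (-1.18, edgeR adjusted p = 3.42e-06). Ngrn, an rRNA-binding factor, fell in P131S from 43.4 to 29.4 CPM (-0.56, edgeR adjusted p = 3.6e-05) and in H137Y (-0.52, edgeR adjusted p = 0.000102). Rcc1l and Rbfa, which are mitoribosome assembly factors, rose in P131S by 0.61 and 0.51 (edgeR adjusted p = 8.39e-05 and 0.000118). Tfb1m, the methyltransferase of the small rRNA, fell in H137Y by 0.76 (edgeR adjusted p = 3.49e-05). Higher in P131S than in H137Y were Mtg1 (0.76), Ndufab1 (0.37) and Rpusd4 (0.29).

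Of 16 translation factors, 4 rose (25%) and 5 fell (31.2%) in P131S, again near the shares over all genes. In H137Y 1 rose (6.25%) and 8 fell (50%), and 7 were higher in P131S than in H137Y (43.8%). Lrpprc, which stabilises mitochondrial messages, rose from 85.6 to 120 CPM in P131S (0.48, edgeR adjusted p = 1.24e-05), and its footprints rose in P131S and H137Y by 0.72 and 0.44. Gfm1, the elongation factor G of the organelle, rose by 0.47 in P131S, and Mtif3, an initiation factor, fell by 0.49 in P131S and 0.57 in H137Y. Oxa1l, which inserts nascent proteins into the inner membrane, and Mtres1 fell in H137Y by 0.55 and 0.60. Slirp, Mtres1 and Tsfm were higher in P131S than in H137Y, by 0.54, 0.58 and 0.39.

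Of 12 regulators of mitochondrial transcription and biogenesis, 5 rose (41.7%) and 4 fell (33.3%) in P131S, and 2 rose (16.7%) and 4 fell (33.3%) in H137Y. Myc, a growth regulator whose targets include ribosome genes, fell from a mean of 380 to 194 CPM in P131S (-0.97, edgeR adjusted p = 0.000263). Tefm, the mitochondrial transcription elongation factor, fell by 0.61 in P131S and 0.76 in H137Y. Esrra, a nuclear receptor of mitochondrial genes, rose by 0.49 in P131S. Gabpa, an ETS factor, fell by 0.37 in H137Y and Ppargc1b rose by 0.69. Esrra and Tfam were higher in P131S than in H137Y, by 0.40 and 0.23. Messages encoded by mitochondrial DNA are not analysed here, and the mitochondrial rRNAs mt-Rnr1 and mt-Rnr2 were at or below 1.44 CPM in these poly(A) libraries.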

How the data were processed

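Gene-level counts were estimated by the authors with STAR 2.6.1d and Salmon 1.4.0 on GRCm38, and DESeq2 1.30 was also used, per the submitters' processing notes. The deposited table holds estimated counts per gene for 24 RNA and 24 footprint libraries. These were rounded to whole numbers, filtered by genotype (edgeR filterByExpr, minimum count 10, minimum total 15) and scaled by TMM within each assay. CPM values use the scaled library sizes. Changes were tested with edgeR 4.0.16 (R 4.3.3), glmQLFit with robust estimation and glmQLFTest, 1 mean per genotype, with Benjamini-Hochberg adjustment over all genes of a comparison and a threshold of 0.05. For efficiency, all 48 libraries were fitted together with an assay-by-genotype interaction term. Depth differed about as given in the report and sets the precision of low values. The code was tested on simulated data.

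Alternatives were limma 3.58.1 voom, DESeq2 1.42.0, RLE scaling, no count filter, 2 genotypes fitted alone, a clone block, each clone left out and, chosen after seeing the data, pseudogene counts added to their genes. RNA and footprints of a clone share a lysate, so clone numbers pair the libraries: deviations from the genotype mean correlated at 0.188 to 0.641 for the 24 same-clone pairs, and at -0.560 to 0.0521 for 48 pairs of different clones (8490 genes with a mean of at least 10 CPM). No libraries were duplicates (chi-square per degree of freedom at least 5.82 over 48 replicate pairs). In RNA this value was 5.82 to 6.15 in Rpl5+/-, 19.8 to 57.7 in P131S and 15.2 to 85.0 in H137Y pairs. It also depends on depth, and the tests use a spread pooled over genotypes. An exact permutation test of 3 against 3 clones cannot go below p = 0.1, so single values have no such test.

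Named are, per comparison, up to 5 members per direction with the largest called change and no overlap of clones, 11 members by role, and per pathway list the 3 genes with the lowest p in the Rps15 comparisons. The members and lists were chosen with earlier results of these data known. Summed RNA of the general haematopoietic list (Ptprc, Spi1) was 293 to 319 CPM in WT, 264 to 406 CPM in P131S and 253 to 308 CPM in H137Y. Upstream bases and motif shares come from RefSeq windows, which run past the transcription start. The bases shown are only the part before the start, while the motif shares count matches over the whole windows.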

Additional observations from a re-analysis of the deposited data

Results flagged for a closer look

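The direct comparison of the Rps15 genotypes tests whether the P131S and H137Y changes differ, and it picked out the following results. RNA was higher in P131S than in H137Y for 57 members. Among the members whose difference passed the test, log2 differences in RNA were 0.65 for Mrps28, 0.56 for Mrps36, 0.55 for Mrpl47, 0.54 for Mrps22, 0.49 for Mrps16, 0.41 for Mrpl58 and 0.29 for Mrps18b. The Mrps18b difference was 0.13 without P131S clone 20 (edgeR adjusted p = 0.339), and its call was also lost without H137Y clone 6 or 16. Footprints were higher in P131S for 4 members: by 0.83 for Mrps18b, 0.67 for Mrpl9, 0.54 for Mrpl21 and 0.36 for Mrpl58. Efficiency differed for 1 member, Mrpl42, at -0.68.

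Footprints were also counted in rows outside the 78 members, the annotated pseudogenes of 3 of them. These rows were among the 16217 genes tested but enter no count of members. Their highest footprint levels in any library were 80.9 CPM for Mrpl23-ps1, 27.7 CPM for Mrpl48-ps and 10.4 CPM for Mrps36-ps1. Assignment of these footprints to the copy or to the parent gene was not tested.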

How the results depend on the processing

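Of the counts of called members, 133 values recomputed under an alternative other than leaving out a clone stayed within 1.5 times the count, and 26 moved. Of the members' medians and the values of single members together, 756 were unchanged. For medians this means within the spread between clones, and for single members the same direction and side of the threshold. Of the values of single members, 46 lost the call, 1 gained it and 9 turned direction. The cause of these shifts was not tested. Where clones or genotypes were left out there were fewer samples, and a fit of 2 genotypes takes its spread from their clones alone.

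Brackets give the genes called in either direction out of all genes fitted. With 2 genotypes fitted alone, members called in RNA were 11 in Rpl5+/- (1868 of 11814) and 3 in Rpl11+/- (855 of 12008). They were 4 in Rpl22-/- (1436 of 11928), 34 in Rpl10 R98S (4216 of 11917) and 3 for P131S against H137Y (378 of 12069). In footprints they were 4 in Rpl10 R98S (689 of 14124), 6 in H137Y (1415 of 14107) and 0 for P131S against H137Y (34 of 14008). In efficiency they were 0 in P131S (422 of 14873) and 0 for P131S against H137Y (3 of 14624). DESeq2 called 2 in RNA of Rpl22-/- (903 of 12814), 1 in footprints of Rpl22+/- (406 of 16217) and 5 in those of Rpl10 R98S (738 of 16217). In efficiency DESeq2 called 2 in P131S (914 of 16568) and 7 in H137Y (765 of 16568). It called 4 for P131S against H137Y (313 of 16568) and 8 for the Rps15 against the large-subunit genotypes (1717 of 16568). Over all genes, edgeR's efficiency calls were 146 higher and 374 lower in P131S and 101 and 356 in H137Y, and DESeq2 had 373 of 914 and 262 of 765 higher. Without the count filter 1 was called in RNA of Rpl5+/- (49 of 22437), and in footprints 0 in Rpl10 R98S (255 of 38392) and 10 in P131S (2105 of 38392). Of these 10, 9 were higher and 1 lower. In efficiency, 0 were called for P131S against H137Y (85 of 39666) and 3 for the Rps15 against the large-subunit genotypes (877 of 39666). The median footprint change of all genes in the latter comparison was -0.12. The clone number as a replicate block gave 4, 3, 2 and 9 efficiency calls in P131S, H137Y, P131S against H137Y and Rps15 against large-subunit genotypes. Of all 16568 genes, 806, 634, 155 and 1640 were called in these comparisons. The block changed no other count of members. Adding pseudogene counts to their genes left 8 members higher and 5 lower in footprints of H137Y (1887 of 16214).

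Leaving out 1 clone gave these ranges of members called, for which no share over all genes was computed. In RNA they were 0 to 0 for Rpl5+/-, 1 to 9 for Rpl11+/-, 3 to 5 for Rpl10 R98S, 35 to 48 for P131S, 18 to 25 for H137Y, 29 to 59 for P131S against H137Y and 36 to 44 for Rps15 against large-subunit genotypes. In footprints they were 0 to 1 for Rpl22+/- (1 without clone 16), 0 to 0 for Rpl10 R98S, 7 to 17 for P131S, 6 to 12 for H137Y, 0 to 5 for P131S against H137Y and 19 to 29 for Rps15 against large-subunit genotypes. In efficiency they were 0 to 1 for P131S, H137Y and P131S against H137Y, and 4 to 9 for Rps15 against large-subunit genotypes (9 without Rpl11+/- clone 22, 8 without Rpl22+/- clone 60).

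The 13 log2 changes that turned direction ran from -0.19 to 0.20 as reported, none past the threshold. In RNA of H137Y, Mrps30 was 0.0065 with DESeq2 and 0.0065 with RLE scaling, and Mrps36 0.0030 and 0.0034. In footprints, Mrpl58 in P131S was -0.019 without the filter and -0.0015 with 2 genotypes fitted, Mrpl3 in H137Y was -0.0048 without the filter, and for P131S against H137Y Mrps30 was 0.022 without the filter and Mrps36 -0.00034 with pseudogene counts added. With 1 clone left out, RNA of P131S ran from -0.0071 to 0.25 for Mrps18c and -0.026 to 0.094 for Mrps30; RNA of H137Y from -0.047 to 0.062 for Mrps18b, -0.031 to 0.012 for Mrps30 and -0.065 to 0.049 for Mrps36; and RNA of P131S against H137Y from -0.020 to 0.10 for Mrps30. Footprints ran from -0.063 to 0.10 for Mrpl58 and -0.0051 to 0.17 for Mrps18a in P131S, from -0.055 to 0.15 for Mrpl3 and -0.18 to 0.48 for Mrps36 in H137Y, and for P131S against H137Y from -0.47 to 0.23 for Mrps12, -0.015 to 0.051 for Mrps30 and -0.11 to 0.55 for Mrps36.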
